A study of Homo sapiens with 4 samples.

Results

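The regions described here are BACH1-bound sites that lie in the weaker 50% of the 16HBE14o- peak list by signal and that were also called in the Calu3 list. Rows of the 16HBE14o- list that overlapped were merged, keeping the highest signal and its summit, and the 3393 resulting regions were ranked by signal. Of the 1696 regions in the weaker 50%, 424 overlapped a Calu3 region by at least 1 bp, which is 12.5% of the whole 16HBE14o- list (95% exact binomial interval 11.4 to 13.7). The choice thus used the 16HBE14o- signal and the presence of a Calu3 call. The place of the counterpart within the Calu3 list was not used. The position of the summits was not used either, but the required overlap limits how far apart they can lie.

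Binding was measured by chromatin immunoprecipitation and sequencing (ChIP-seq) in 2 airway lines of human origin, each with 2 replicates, which makes 4 samples. Calu3 is a line from a human lung adenocarcinoma, and 16HBE14o- is a line of human bronchial epithelial cells. The lines share the growth medium, DMEM with fetal bovine serum, and the rabbit antibody against BACH1. No treatment or altered gene is named for either line. Each line is 1 deposited peak list made from both replicates, so no value below has a replicate spread, no comparison between the lines or between groups of regions was tested, and the intervals cover counting error only. Regions are not replicates, and some lie close together. They are given by their 1-based position on hg19 and were not assigned to genes here.

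BACH1 belongs to the CNC family of basic leucine zipper transcription factors. It binds DNA as a pair with a small MAF protein, at Maf recognition elements, which contain the core bound by AP-1 factors, and it is best known for repressing genes of haem breakdown, iron storage and glutathione supply. Haem causes BACH1 to leave these sites, where the activator NRF2, another CNC factor, can bind in its place. The study asked whether BACH1 also takes part in the control of CFTR, the gene of the airway chloride channel.

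The weaker 50% ended at a 16HBE14o- signal of 30.1, on a scale that the sources do not state. The 424 shared regions had signals from 11.9 to 30.1 with a median of 25.9 (interquartile range 23.7 to 28.0). The 1155 shared regions in the stronger 50% had a median of 47.3 and reached 366. Just inside the boundary lay chr16:73054417-73054656, chr3:58038067-58038306 and chr8:103937078-103937317 (hg19). They ranked 1702, 1705 and 1708 in 16HBE14o-, and their counterparts ranked 332, 552 and 1199 of 10246 in Calu3. Just outside lay chr6:146070824-146071063, chr2:20432795-20433034 and chr1:36103055-36103294. These ranked 1697, 1692 and 1688 in 16HBE14o-, and 690, 3556 and 3500 in Calu3. Of these 6 regions, the 2 with the best Calu3 ranks were on the weaker side of the boundary.

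Within the weaker 50%, the share of regions with a Calu3 call was larger at higher 16HBE14o- signal. The overlap rule called 46.5% of all 16HBE14o- regions, 68.1% (95% interval 65.8 to 70.3) of those in the stronger 50% and 25.0% (95% interval 23.0 to 27.1) of those in the weaker 50%. Among the latter, 113 of the 338 regions with signals from 27.82 to 30.15 were shared (33.4%, 95% interval 28.4 to 38.7). The share was 31.2% at signals from 25.77 to 27.81, 26.8% from 23.99 to 25.76 and 18.6% from 22.13 to 23.98. In the lowest step, from 8.95 to 22.12, 51 of 340 regions were shared (15.0%, 95% interval 11.4 to 19.2). The overlap was part of the choice, so these shares describe the set and support nothing further. The weaker 50% without a Calu3 call, 1272 regions, had a median signal of 24.6 against 25.9 for the shared ones.

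In Calu3 the shared regions were spread over nearly the whole list. Their counterparts ranked from 100 to 10228 in Calu3, with a median rank of 3592.5 (95% interval 3112 to 3767). The median fold enrichment in Calu3 was 5.13 (95% interval 4.98 to 5.59), against 4.13 for all Calu3 regions and 8.89 (95% interval 8.47 to 9.64) for the counterparts of the stronger 50%. Of the 424, 153 (36.1%, 95% interval 31.5 to 40.9) met a region in the strongest 25% of the Calu3 list, which by construction holds 25.0% of all Calu3 regions. A further 122 fell in the next 25%, 93 in the next, and 56 (13.2%, 95% interval 10.1 to 16.8) in the weakest. The counterparts of the stronger 50% were placed higher, with 68.1% (95% interval 65.3 to 70.7) in the strongest 25% of Calu3 and 5.63% (95% interval 4.37 to 7.12) in the weakest. The intervals of these shares cover counting error only, and the difference between the groups was not tested.

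**Figure D1:**
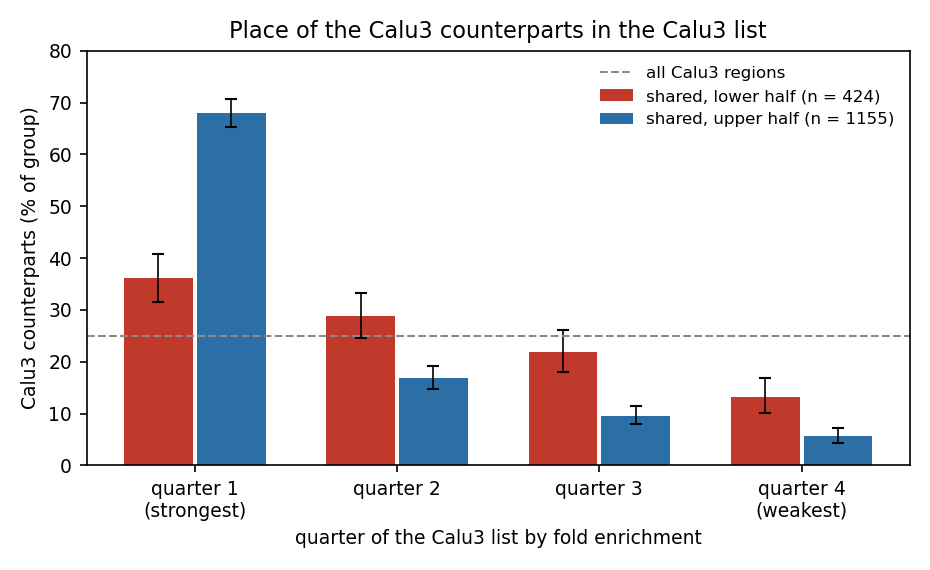
Share of Calu3 counterparts (y axis, percent of the group) in each 25% of the Calu3 list by fold enrichment (x axis), for the 424 shared regions of the weaker 50% of the 16HBE14o- list (red) and the 1155 of the stronger 50% (blue); error bars are 95% exact binomial intervals. The red bars go from 36.1% in the strongest group to 13.2% in the weakest, around the dashed line at 25.0% for all Calu3 regions.

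Most of the Calu3 counterparts had a q under 0.05 as the authors deposited it. Of all Calu3 regions 26.7% had a deposited q of 0.05 or more. Among the counterparts of the 424 regions, 45 (10.6%, 95% interval 7.85 to 13.9) did, and in 16 of these the −log10 q was 0. Among the counterparts of the stronger 50% the share was 5.02% (95% interval 3.83 to 6.44). The median −log10 q was 7.25 for the counterparts of the 424 regions and 24.11 for those of the stronger 50%.

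Within the set, signal in 16HBE14o- and fold enrichment in Calu3 were weakly related. Across the 424 regions, the rank correlation of 16HBE14o- signal and Calu3 fold enrichment was 0.12 (Spearman's rho), against 0.53 across the 1155 shared regions of the stronger 50%. The signals of the 424 span a narrow range, and regions within a list share their libraries, so both are given as descriptions. The median 16HBE14o- signal was 26.1 for the regions whose counterpart was in the strongest 25% of Calu3, 26.3 and 25.4 in the next 2 groups and 25.5 in the weakest. In the other direction, the median Calu3 rank was 2734 (95% interval 2345 to 3486) in the highest of the 5 signal steps and 4129 (95% interval 3394 to 5989) in the lowest. The 3 steps between had medians of 3972.5, 3438 and 4007, and the intervals of all 5 overlapped.

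**Figure D2:**
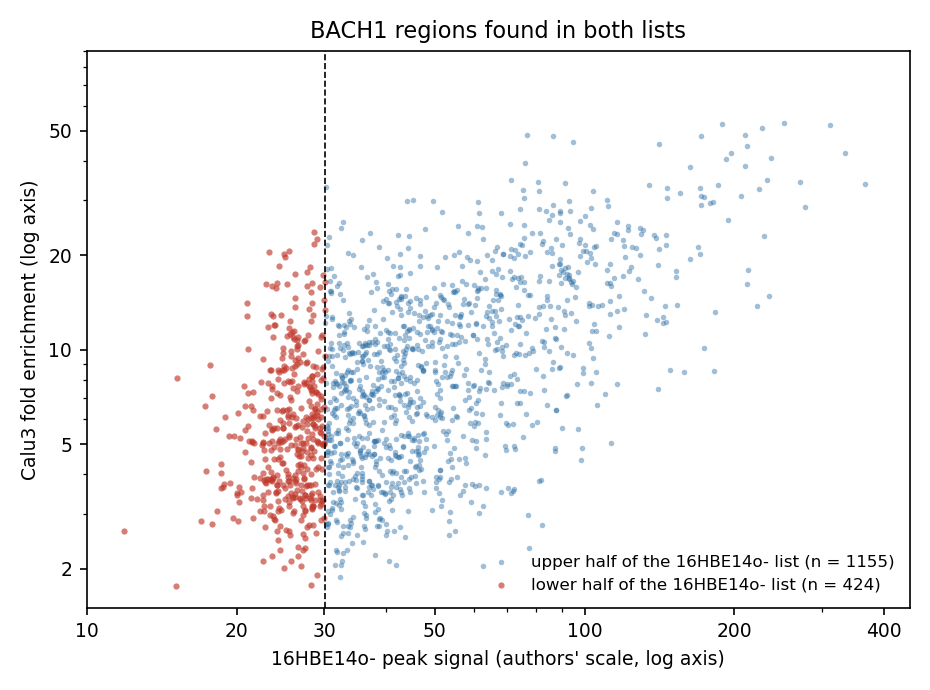
Calu3 fold enrichment (y axis, log scale) against 16HBE14o- peak signal on the authors' scale (x axis, log scale) for every 16HBE14o- region that meets a Calu3 region; each point is 1 region and the dashed line is the boundary between the weaker and the stronger 50% of the list. The 424 weaker regions (red) run from a fold of 1.76 to 23.8 within a narrow band of signal.

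Of the 500 strongest Calu3 regions, 26 (5.20%, 95% interval 3.42 to 7.53) had their 16HBE14o- counterpart in the weaker 50%. These 26 are 6.13% (95% interval 4.04 to 8.86) of the 424 regions, near the 4.88% that the 500 make up of the Calu3 list. For the shared regions of the stronger 50%, 302 of 1155 (26.1%, 95% interval 23.6 to 28.8) had a counterpart among the 500. The site with the strongest Calu3 call of all lay at chr10:3356060-3356299. It ranked 100 in Calu3 with a fold enrichment of 23.8, and 1913 of 3393 in 16HBE14o- with a signal of 28.6. Its Calu3 summit was at 3356161, 19 bp from that of 16HBE14o-.

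Further sites of this kind lay on chromosome 3 and on chromosome 2. The region at chr3:113006207-113006446 ranked 126 in Calu3 (fold enrichment 22.6) and 1852 in 16HBE14o- (signal 29.0). The region at chr2:47866713-47866952 ranked 144 (fold enrichment 21.7) and 1910 (signal 28.6). Their Calu3 summits, at 113006317 and 47866798, were 10 and 35 bp from those of 16HBE14o-.

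The next pair sat lower in the 16HBE14o- list. The region at chr8:72743560-72743799 ranked 173 in Calu3, with a fold enrichment of 20.6, and 2426 in 16HBE14o-, with a signal of 25.5. Its Calu3 summit was at 72743682, only 2 bp from the other. The region at chr3:41309630-41309869 ranked 177 in Calu3, where its fold enrichment was 20.5, and 2846 in 16HBE14o-, where its signal was 23.3. The Calu3 summit lay at 41309716, 34 bp away. By the −log10 p of the Calu3 list, 119.87, this last region would rank 82. No other of the 424 regions had a smaller p in Calu3.

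The remaining 5 of the 10 strongest in Calu3 were on chromosomes 16, 6, 1 and X. chr16:24855919-24856158 and chr6:84140797-84141036 ranked 187 and 207 in Calu3, with summits at 24855998 and 84140894, and 2515 and 2510 in 16HBE14o-. chr1:181224665-181224904 ranked 241 in Calu3, with its summit at 181224800, and 2634 in 16HBE14o-. chrX:153769365-153769604 ranked 252 and 1999, and chr6:89745244-89745483 ranked 273 and 2059. The Calu3 rank comes first in each case, and the Calu3 summits were at 153769470 and 89745422. Over all 10 the Calu3 fold enrichment ran from 17.7 to 23.8 and the distance between summits from 2 to 58 bp. Ranks in lists of different length and scale do not show that BACH1 binding differed between the lines at these sites.

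At the other end were sites weak in both lists. The region with the lowest 16HBE14o- signal of the set, 11.9 at rank 3388, lay at chr17:75282769-75283008. Its Calu3 counterpart, with its summit at 75282864, ranked 9340 with a fold enrichment of 2.63 and a −log10 q of 0. The next lowest, chr3:156806861-156807100, had a signal of 15.1 and met the lowest-ranked Calu3 region of the set, rank 10228 with a fold enrichment of 1.76. The Calu3 summit, at 156806748, was 233 bp from that of 16HBE14o- and outside the 16HBE14o- region, so the peaks met only at their edges.

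Low signal in 16HBE14o- did not always go with a low rank in Calu3. chr17:64948183-64948422, with nearly the same signal of 15.2, met the Calu3 region of rank 1599, with a fold enrichment of 8.12 and its summit at 64948317, 14 bp away. chr1:32421644-32421883 (signal 17.3) met rank 2307, whereas chr7:102516248-102516487 (signal 17.0) met rank 8749. The 5 regions with the lowest signal were thus divided between strong and weak Calu3 calls.

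The Calu3 list gives each region both a fold enrichment and a p, and for most of the 424 regions the ranks by these measures were close. The rank by fold minus the rank by −log10 p had a median of 81.5 places (interquartile range −365.5 to 567.25). In 7 of the 424 regions the p placed the counterpart at least 3000 places higher than the fold did. Of these 7, 3 were on chromosome 17, which held 19 of the 424, and 2 on chromosome 20, which held 32. In the whole Calu3 list, 91 of 10246 regions had such a gap, 27 of them on chromosome 17, which held 360 of the 10246. The widest gap was at chr17:37886650-37886889, with a 16HBE14o- signal of 28.3. Its Calu3 counterpart had a fold enrichment of only 1.78 (rank 10227) but a −log10 p of 10.13 (rank 3708) and a −log10 q of 6.41.

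The other two of chromosome 17, named here after their values were seen, lay from 35277921 to 35278160 and from 36058298 to 36058537. Their counterparts ranked 8497 and 6892 by fold and 3762 and 2240 by p. By fold alone the region with the widest gap, starting at 37886650, was among the weakest Calu3 calls of the set, and by p it fell near the middle of the 424, whose median −log10 p was 11.01. The other regions with the weakest counterparts by fold were chr11:12705473-12705712, chr7:46584034-46584273 and chr20:43205559-43205798. Their Calu3 ranks by fold were 10210, 10174 and 10155 and by p 9998, 9666 and 10114, and all 3 had a −log10 q of 0. These were weak in Calu3 by both measures.

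The paired summits of the 424 regions lay close together, though less closely than at the stronger sites. In both groups the required overlap limited the distance in advance, so the closeness itself describes the set and supports nothing further. The median distance was 28 bp (95% interval 25 to 32, interquartile range 12.75 to 47), against 16 bp (95% interval 15 to 18) for the shared regions of the stronger 50%. Of the 424 pairs, 330 (77.8%, 95% interval 73.6 to 81.7) had summits within 50 bp, 400 within 100 bp and 413 within 200 bp, and 8 had the same base. The share within 50 bp in the stronger 50% was 91.1% (95% interval 89.3 to 92.7). The Calu3 summit lay at the higher coordinate in 190 pairs and at the lower in 226, and the median of the signed distance was −4.5 bp (95% interval −10 to 0).

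Split by the strength of the Calu3 counterpart, the median distance of the 424 was larger by a similar margin except in the weakest 25%. The intervals lay apart only for the strongest 25% of Calu3, which held the most regions of both groups. Overlap of the wider intervals elsewhere does not show that the groups were alike there. With counterparts in the strongest 25% of Calu3, the median distance was 23 bp (95% interval 18 to 29) over 153 regions and 14 bp (95% interval 13 to 16) over the 786 of the stronger 50%. In the next 25% it was 29 bp (95% interval 23 to 37) and 20 bp (95% interval 17 to 25), and in the third group 34 bp (95% interval 26 to 41) and 24.5 bp (95% interval 19 to 33). Among the weakest Calu3 counterparts the medians were 31.5 bp (95% interval 21 to 44) and 31 bp (95% interval 21 to 44). Within the strongest 25% of Calu3 the counterparts of the 424 had a lower median fold, 8.87, than those of the stronger 50%, 12.0, so the groups were not of equal strength there.

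**Figure D3:**
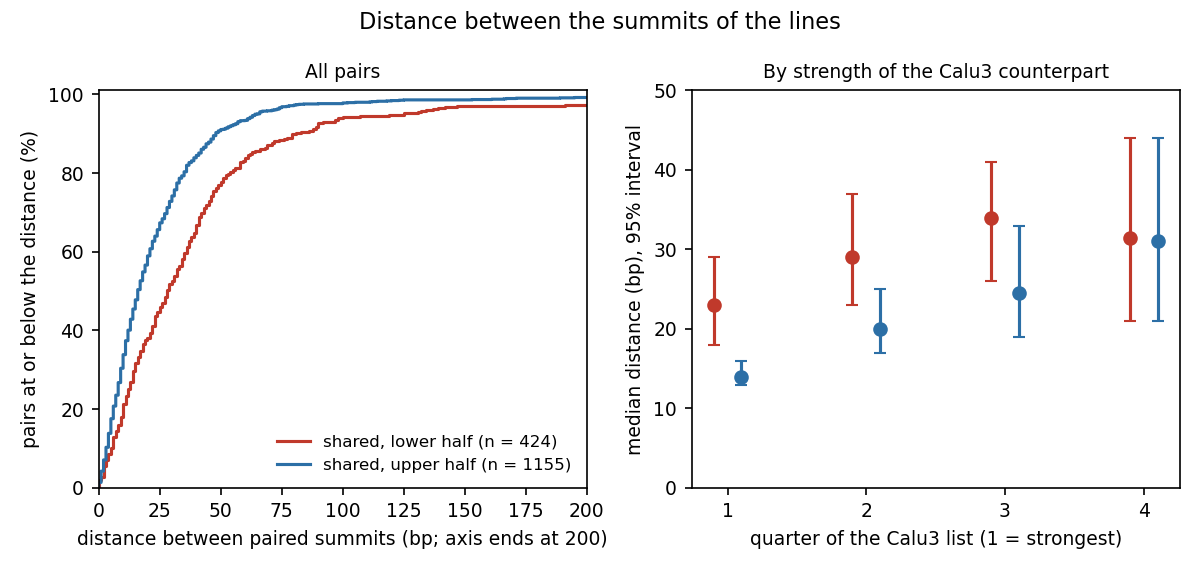
Left, cumulative percentage of pairs (y axis) at or below each distance between the 16HBE14o- and Calu3 summits (x axis, bp), for both groups of shared regions; right, median distance with its 95% interval by strength of the Calu3 counterpart, from the strongest 25% to the weakest. The curve of the 424 weaker regions (red) lies below that of the 1155 stronger ones (blue), with 77.8% against 91.1% within 50 bp, and the medians meet in the weakest group.

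A few pairs overlapped without sharing a summit. The largest distance, 519 bp, was at chr11:67981419-67981658, where the Calu3 region was 658 bp wide. At chr3:150320897-150321136 the summits were 313 bp apart, at chr1:161509893-161510132 they were 280 bp apart, and at chr17:79604085-79604324 they were 279 bp apart. The second largest distance, 412 bp, was at chr18:3623992-3624231 (signal 19.0, rank 3280). The Calu3 region there, 717 bp wide, also covered a stronger 16HBE14o- region, from 3624413 to 3624652 (signal 55.3, rank 500), whose summit was 9 bp from that of Calu3. The weaker site was therefore counted as shared through a call whose summit fell on its neighbour.

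One other Calu3 region met both a weaker and a stronger 16HBE14o- region, on chromosome 12, and there the order was the opposite. The weaker region, from 125399729 to 125399968 (signal 29.0), had its summit 34 bp from that of Calu3, and the stronger, from 125399384 to 125399623 (signal 31.3), had it 311 bp away. Each of the 424 regions met exactly 1 Calu3 region, and no pair of them met the same one.

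The Calu3 counterparts of the 424 regions were wider than Calu3 regions as a whole, with a median of 278.5 bp (95% interval 263 to 290) against 235 bp over the whole list. Those of the stronger 50% had a median of 345 bp (95% interval 335 to 351). Width followed strength in Calu3, from a median of 339 bp in the strongest 25% of the list to 188 bp in the weakest, and in the same groups the counterparts of the 424 had medians of 343, 260, 211 and 200.5 bp. A wider region is also met more readily by an overlap of 1 bp. In 16HBE14o- itself 420 of the 424 regions were exactly 240 bp wide, and the other 4 had each been merged from 2 rows. The 16HBE14o- region lay wholly inside its Calu3 counterpart in 159 cases (37.5%, 95% interval 32.9 to 42.3), and the median overlap was 224.5 bp.

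The regions were found on all of chromosomes 1 to 22 and X, in unequal shares. Chromosome 3 held most, 41 of the 424, followed by chromosome 1 with 37, chromosome 2 with 35 and chromosome 20 with 32. As a share of the weaker 50% of the 16HBE14o- list on the same chromosome, they were most frequent on chromosome X (11 of 23, 47.8%, 95% interval 26.8 to 69.4), chromosome 10 (16 of 34, 47.1%, 95% interval 29.8 to 64.9) and chromosome 5 (29 of 64, 45.3%, 95% interval 32.8 to 58.3). They were least frequent on chromosome 14 (15 of 111, 13.5%, 95% interval 7.77 to 21.3) and were also few on chromosome 20 (32 of 210, 15.2%, 95% interval 10.7 to 20.8). The intervals of chromosomes 5, 10 and X did not meet those of 14 and 20. The differences are not tested, and the extremes were picked from 23 chromosomes.

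The number of Calu3 regions per 16HBE14o- region differed between these chromosomes in the same direction. It was 4.41 on chromosome 5, 5.36 on chromosome 10 and 4.53 on chromosome X, but 1.23 on chromosome 14 and 1.19 on chromosome 20. Other chromosomes did not all keep to this order. Chromosome 19 had a share of 15.2% (5 of 33) at a ratio of 3.21, and chromosome 16 had 25.9% at 1.66. The part of this ratio in the shares was not tested. Chromosome 3 had the highest ratio, 6.94, with 41 of 118 regions shared (34.7%, 95% interval 26.2 to 44.1). In the stronger 50% the shares on chromosomes 5, 10, 14, 20 and X were closer together. They were 52.9% on chromosomes 14 and 20, 67.8% on chromosome 5, 73.3% on X and 79.2% on chromosome 10. These chromosomes had been picked as extremes of the weaker 50%, which can by itself narrow their spread in the stronger 50%. Over all chromosomes the shares ran from 47.8% (chromosome 21) to 79.2% (chromosome 10) in the stronger 50%. In the weaker 50% they ran from 13.5% (chromosome 14) to 47.8% (X).

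**Figure D4:**
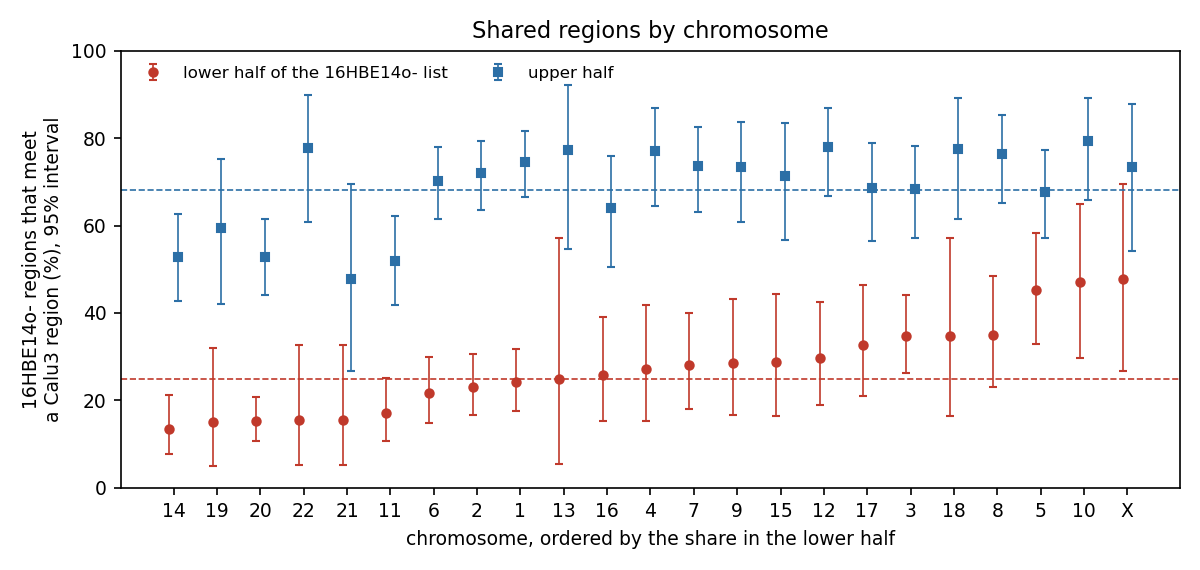
Percentage of 16HBE14o- regions that meet a Calu3 region (y axis) on each chromosome (x axis, ordered by the red points), for the weaker 50% (red) and the stronger 50% (blue) of the list; error bars are 95% exact binomial intervals and dashed lines the values over all chromosomes, 25.0% and 68.1%. The red points run from 13.5% on chromosome 14 to 47.8% on X.

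The Calu3 strength of the counterparts also varied by chromosome. On chromosome 20 the median Calu3 rank of the 32 counterparts was 6751.5, with 20 in the weaker 50% of the Calu3 list and 4 in the strongest 25%. All Calu3 regions of chromosome 20 had a median rank of 7067. On chromosome 3 the 41 counterparts had a median rank of 2426, with 21 in the strongest 25%, whereas all Calu3 regions of that chromosome had a median rank of 6756. For the shared regions of the stronger 50% the median Calu3 rank was 1304.5 on chromosome 3 and 3333 on chromosome 20. The Calu3 calls of the 2 chromosomes thus had similar median ranks as a whole, and those that met a 16HBE14o- region, weak or strong, had better median ranks on chromosome 3. This contrast was noticed in the values per chromosome and was not tested.

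The 424 regions lay farther from their neighbours in the 16HBE14o- list than its other weak regions did. The median distance from their summit to the nearest other 16HBE14o- summit was 145796 bp (95% interval 113451 to 172875), against 66128.5 bp (95% interval 60019 to 76522) for the unshared regions of the weaker 50% and 108315 bp (95% interval 93784 to 126097) for the shared regions of the stronger 50%. Another 16HBE14o- region lay within 100 kb of 184 of them (43.4%, 95% interval 38.6 to 48.3), and within 100 kb of 58.6% (95% interval 55.9 to 61.4) of the unshared weak regions. A shared region of the stronger 50% lay within 10 kb of 25 of the 424 (5.90%, 95% interval 3.85 to 8.58) and of 6.13% (95% interval 4.88 to 7.59) of the unshared weak regions. Within 100 kb the shares were 22.2% (95% interval 18.3 to 26.4) and 27.4% (95% interval 24.9 to 29.9), and the median distances to such a region were 399814 bp (95% interval 340972 to 473533) and 350274 bp (95% interval 315569 to 395944), with intervals that overlapped in each case. The part of the uneven spread over chromosomes in these distances was not tested.

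Some of the 424 did lie side by side. Another of the 424 lay within 10 kb of 13 of them (3.07%, 95% interval 1.64 to 5.19). One of the 424 lay within 10 kb of 2.28% (95% interval 1.53 to 3.26) of the unshared weak regions. For the shared regions of stronger signal the share was 2.34% (95% interval 1.55 to 3.38). The intervals overlapped, so such closeness is not shown to be particular to the 424. The tightest group had 3 regions on chromosome 3, from 23987263 to 23987502, from 23987988 to 23988227 and from 23988963 to 23989202, with signals of 26.9, 25.3 and 25.0. Their summits were 725 and 975 bp apart. Each had its own Calu3 counterpart, with fold enrichments of 4.57, 4.02 and 8.63, and the summits of the lines differed by 14, 6 and 6 bp. Between the first and the second lay a further Calu3 region, from 23987618 to 23987812, which had no 16HBE14o- call and a fold enrichment of 2.64. A Calu3 call at each of the 3 sites was part of the choice, and the counterpart of the third ranked 1425 in Calu3. No stronger 16HBE14o- region lay within 5000 bp of the row.

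The closest pair lay 322 bp apart on chromosome 17. It joined the weakest of the 424, from 75282769 to 75283008, with a neighbour from 75283091 to 75283330 (signal 24.6, rank 2591). In Calu3 the order of the pair was the same, with fold enrichments of 2.63 and 9.40, and the summits of the lines differed by 25 and 23 bp. A pair on chromosome 3, from 182456896 to 182457135 and from 182458597 to 182458836, had summits 1701 bp apart. There the order was reversed between the lists, with signals of 28.2 and 25.0 in 16HBE14o- and fold enrichments of 3.32 and 8.89 in Calu3. These groups were chosen by their spacing after the positions were seen.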

How the data were processed

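BACH1 ChIP-seq peak lists of Calu3 and 16HBE14o- were used as deposited, 1 list per line. Per the labels and the series' design text, each combines 2 replicates by the irreproducible discovery rate (IDR). Positions are on hg19 (submitters' processing notes; the 16HBE14o- header also names it). Which aligner, caller, filters and control were used is not given in the sources used here. Read depth is unknown. In the Calu3 list the authors deposited fold enrichment (a ratio, read as such from the format), −log10 p, −log10 q and a browser score. In the 16HBE14o- list the authors deposited peak signal on an unstated scale and further scores. Values were ranked, summarised and split within their own list, and those of the 2 lists were not put on a common scale.

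Overlapping 16HBE14o- rows (3415 in all) were merged, and ties were ranked by position. The counterpart was the overlapping Calu3 row of highest fold. Shares have exact (Clopper-Pearson) intervals and medians exact binomial order-statistic intervals, at 95%. No test was run: there is 1 pooled list per line. Python 3.11.15, numpy 2.4.6, scipy 1.17.1, pandas 2.3.3 and matplotlib 3.10.9 were used, and the functions were tested on simulated data. Coordinates are 1-based. The members and rules were chosen with earlier results of these data known. The regions named are the 10 with the best and the 5 with the worst Calu3 rank, the 5 of lowest signal, the 3 on each side of the boundary, and the 5 with the widest summit distance. Others are marked where given. Gene annotation and sequences on hg19 were not used here, so the planned motif shares, gene positions and 8 gene lists were not analysed. Alternatives changed merging, overlap, ranking column, list part, q, counterpart and width.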

Additional observations from a re-analysis of the deposited data

How the results depend on the processing

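The number of regions stayed within 1.5 times of 424 under 6 of the 7 alternatives run, from 375 with a reciprocal overlap of 50% to 426 with rows not merged. One of these, both lists set to 200 bp around the summits (414 regions), was chosen after seeing the data. The reciprocal overlap, a summit limit of 100 bp (400 regions) and the q limit could only remove regions from the 424. Their counts show how many regions remained and are not separate counts. With only the weakest 25% of the 16HBE14o- list, fewer regions could remain by construction, and 158 did. Their median Calu3 rank was 3939.5 (95% interval 3607 to 4995) and their median summit distance 34 bp (95% interval 28 to 39), against 3592.5 and 28 bp. Under the other alternatives the median rank ran from 3398 to 3592.5 and the median distance from 27 to 28 bp, all inside the intervals of the reported medians. Taking the counterpart with the nearest summit had to return the reported medians, since each region met exactly 1 Calu3 region. Ranking the 16HBE14o- list by another of its scores gave 425 regions, among them all 424, so it barely changed the set. Of the 424 regions, 379 remained when Calu3 rows with a q of 0.05 or more were left out. No paired analysis was possible because the 2 replicates of a line come as 1 pooled list, which also leaves no replicate to omit. Motif windows and gene distances were not run. Since depth is unknown, the reads behind a weak signal cannot be given, and a region in only 1 list is not shown to be absent from the other line.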
